A study of Mus musculus with 2 samples.

Results

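The basement membrane genes described here are 10 genes whose proteins build the thin sheet of matrix under endothelial and epithelial cells: Col4a1, Col4a2, Col15a1, Col18a1, Lama4, Lamb2, Lamc1, Nid1, Nid2 and Hspg2. They were chosen by name, with earlier results of these data known. Every gene probe that carries 1 of these names in both scanner files was taken. This gave 16 probes in 25 spots, out of 55681 gene probes for 34792 genes in 59305 spots. RNA came from pancreatic islets, the clusters of endocrine cells that secrete insulin and glucagon. Islets of RbΔK7 knock-in mice, which carry a form of the retinoblastoma protein Rb that resists phosphorylation, were compared with islets of control mice. The labels give no strain, age or sex, and they do not say in which cells the mutant Rb was present. There were 2 mutant samples, labelled with the dye Cy5, and 2 control samples, labelled with Cy3, which the series design describes as grown and harvested independently. A mutant and a control sample shared each of the 2 arrays. In both genotypes the islets were freed with collagenase, an enzyme that digests collagen, picked by hand and frozen at once.

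A basement membrane is assembled from a network of collagen IV and a polymer of laminin, which nidogens and the heparan sulfate proteoglycan perlecan join together. Each laminin is made of 1 alpha, 1 beta and 1 gamma chain. Collagens XV and XVIII sit at the border of the basement membrane and the connective tissue, and the end fragment of collagen XVIII is endostatin. In mouse islets, endocrine cells are known to rest against the basement membrane of the capillaries, which the endothelial cells make, and a further basement membrane and capsule lie around the islet.

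Each value below is a log2 ratio of mutant over control from 1 array, unless a level is named, and 0 means no difference. A ratio of 1 is a doubling. Levels are normalized log2 intensities, which compare samples within 1 probe and not 1 gene with another. On each array 41.0% and 48.2% of gene spots were well above background in the mutant channel (replicates 1 and 2), and 37.0% and 38.1% in the control channel. No gene spot was saturated. Over all 22266 tested probes the ratios had medians of 0.02 on both arrays and SDs of 0.293 and 0.478. With 2 arrays, precision is limited by their number. The mutant was in the Cy5 channel both times, so for any 1 probe genotype and dye cannot be told apart, and both arrays lay on the same slide.

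The samples were first checked against markers of the pancreas. All 12 islet endocrine markers, which define the labelled tissue, were tested and had a summed level (log2 of the sum over markers) of 19.64 and 20.09 in the mutant samples and 19.50 and 19.38 in the control samples. The insulin genes had ratios of -0.15 and 1.25 (Ins1) and of -0.57 and 0.71 (Ins2). Acinar enzyme genes, markers of the exocrine pancreas, were bright in the samples too. Their summed level was 20.18 and 16.46 in the mutant samples and 19.79 and 21.02 in the control samples, so the mutant sample of replicate 2 held the least of them. Their median ratios were 0.46 and -5.19, Amy2a5 had 0.48 and -6.91, Cpb1 had 0.56 and -6.97, and the part of this difference in the other ratios of the replicate 2 array was not tested.

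The array reads each gene through probes of 60 bases, and those shown here read open, with no stop codon in at least 1 reading frame. That does not show that they are coding, since their placement in exons was not analysed here. The probes of the laminin chain genes Lamb2 and Lama4 were well above background and tested, and each is open in 1 reading frame. Their positions are on mm9, on the plus strand.
Lamb2, chr9:108392189-108392248: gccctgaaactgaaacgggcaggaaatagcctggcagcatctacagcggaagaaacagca
Lama4, chr10:38825794-38825853: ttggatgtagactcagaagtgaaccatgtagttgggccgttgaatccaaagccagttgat
The next probes, of Col15a1, Nid1 and Hspg2, are shown because their signal was too low to test. For Col15a1 no difference could thus be tested, and for Nid1 and Hspg2 another probe carries the result. In the Col15a1 probe the capitals mark 6 GGN codons, which encode glycine, with a pair of other codons between one and the next, the repeat that lets collagen chains wind into a triple helix. The Nid1 probe is placed across a junction, since its 60 bases run on chromosome 13 from 13530138 to 13555992.
Col15a1, chr4:47283786-47283845: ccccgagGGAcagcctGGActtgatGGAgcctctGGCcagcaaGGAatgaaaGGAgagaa
Nid1, junction probe: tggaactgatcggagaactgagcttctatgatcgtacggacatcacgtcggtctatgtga
Hspg2, chr4:137125445-137125504: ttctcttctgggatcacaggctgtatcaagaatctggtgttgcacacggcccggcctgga

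Of the 10 genes, Col18a1, the collagen XVIII gene, passed the test as higher in the mutant islets. Col18a1 had ratios of 1.16 (replicate 1) and 1.22 (replicate 2), a 2.28-fold mean difference, with a limma adjusted p of 0.0446. Of the 9 genes that could be tested it was the 1 that passed, and 0 fell. By their brightest probe, 75 of 17104 tested genes were higher, which is 0.438%. Counted by probe, 1 of the 10 tested probes of these genes was higher, against 82 of 22266 over the array (0.368%), and 0 were lower, against 3 over the array (0.0135%). The other 8 tested genes had mean ratios from 0.16 to 1.07 and did not pass. All 10 tested probes were well above background in both channels on both arrays, so none entered the test through its mutant signal alone. The p-values set the mean of 2 within-array ratios against 0, relative to the spread between them and a spread estimate shared over all probes.

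**Figure D1:**
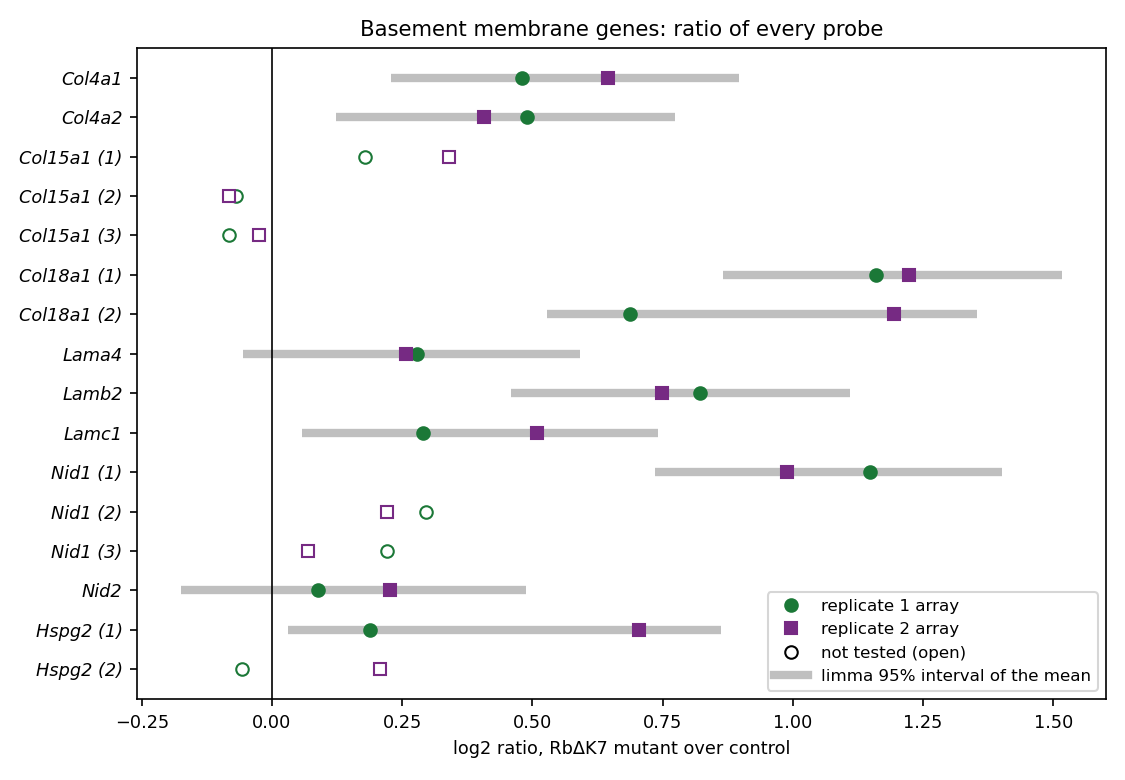
Log2 ratio of RbΔK7 mutant over control (x axis) for each of the 16 probes (y axis), with circles for the replicate 1 array, squares for the replicate 2 array, open symbols for the 6 probes not tested and grey bars for limma's 95% interval of the mean. Both filled symbols of all 10 tested probes lie above 0, and those of the first Col18a1 probe, at 1.16 and 1.22, are the ones that passed the test.

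Collagen IV forms the network of every basement membrane, and Col4a1 and Col4a2 encode the chains of its commonest form, with 2 of the first joined to 1 of the second. The level of Col4a1 was 9.71 and 10.95 in the mutant samples (replicates 1 and 2) and 9.23 and 10.30 in the control samples. On each array the mutant was the higher, but the control sample of replicate 2 lay above the mutant sample of replicate 1, so the groups overlapped. The ratios were 0.48 and 0.64, with a mean of 0.56 ± 0.12 (SD, n = 2), a 95% interval of 0.23 to 0.90 and a limma adjusted p of 0.215. The Col4a1 probe (chromosome 8, 11199009 to 11199068, mm9, minus strand) was printed 10 times on each array, which shows the error within an array. Its 10 spots ran from 0.38 to 0.56 with a median of 0.49 on the replicate 1 array, and from 0.54 to 0.77 with a median of 0.62 on the replicate 2 array. The SDs of the spots, 0.061 and 0.072, were smaller than the SD of 0.12 between the arrays.

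Col4a2 (chromosome 8, 11448840 to 11448899, mm9, plus strand) had levels of 9.23 and 10.32 in the mutant samples and 8.74 and 9.91 in the control samples. Here too the control sample of replicate 2 was above the mutant sample of replicate 1. Its ratios of 0.49 and 0.41 gave a mean of 0.45 ± 0.059 (SD, n = 2), with a 95% interval of 0.12 to 0.77 and a limma adjusted p of 0.299. Neither chain thus passed the test, and their mean fold differences were 1.48 for Col4a1 and 1.36 for Col4a2.

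Col4a1 and Col4a2 lie head to head: in the RefSeq table of the GRCm38.p6 assembly their start sites are 21 bases apart on opposite strands. The promoter windows in that table run from 250 bases before the start to 50 after it, and those of this pair share 78 bases. The motif GGGCGG, the core of the GC box, was found 1 time in the Col4a1 window and 3 times in the Col4a2 window, on either strand, and CCAAT 1 time in each. The Col4a1 match of GGGCGG lies in the shared bases and is the same site as 1 of the Col4a2 matches. TATAAA was found in neither. Over all 32851 windows in the table, 35.7% held GGGCGG, 37.4% held CCAAT and 13.6% held TATAAA. A match of letters is a description and shows no binding.

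Collagen XVIII, a collagen that carries heparan sulfate chains, was read by a pair of probes 864 bases apart on both the transcript and the chromosome. The brighter probe (chromosome 10, 76514926 to 76514985, mm9, minus strand) had levels of 8.19 and 9.62 in the mutant samples and 7.03 and 8.40 in the control samples. The mutant was higher on each array by more than 1, yet the control sample of replicate 2, at 8.40, was above the mutant sample of replicate 1, at 8.19. The mean ratio was 1.19 ± 0.044 (SD, n = 2), with a 95% interval of 0.87 to 1.52. The dimmer probe (76515790 to 76515849) had levels of 7.49 and 8.996 in the mutant samples and 6.80 and 7.80 in the control samples. Its ratios were 0.69 and 1.19, a mean of 0.94 ± 0.36 (SD, n = 2) with a 95% interval of 0.53 to 1.35, and it did not pass (limma adjusted p = 0.115). So both probes were higher in the mutant on both arrays, and they differed on the replicate 1 array. The call of the brighter probe was lost with Agilent's own processed signals, where its mean was 1.60 and the limma adjusted p was 0.263, and also with an offset of 0 (1.55, limma adjusted p = 0.150). When the probes of each gene were averaged before the fit, no gene passed, and the smallest limma adjusted p was 0.0645.

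The table gives Col18a1 a pair of start sites. The window of the upstream one is shown because Col18a1 is the gene that passed. Capitals mark GGGCGG and CCAAT or their reverse complements, 3 and 1 matches, and TATAAA was not found. The sequence is from RefSeq on GRCm38.p6, minus strand, and 63.3% of its bases are G or C.
Col18a1 upstream window, chr10:77166481-77166780: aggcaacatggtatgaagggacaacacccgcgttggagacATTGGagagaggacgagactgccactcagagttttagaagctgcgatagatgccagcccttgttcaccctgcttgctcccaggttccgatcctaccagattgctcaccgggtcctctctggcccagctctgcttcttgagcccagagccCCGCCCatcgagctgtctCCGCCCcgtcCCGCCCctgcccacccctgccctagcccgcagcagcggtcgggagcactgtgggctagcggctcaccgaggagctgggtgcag
The window of the downstream start site held none of the 3 motifs. In the other windows GGGCGG was found 5 times for Hspg2 and 1 time for Nid1, which also held 1 CCAAT, and none of the 3 motifs was found for Col15a1 or Lamb2. Lama4, Lamc1 and Nid2 have no window in the table.

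Collagen XV, the close relative of collagen XVIII, was not tested, since none of its 3 probes was well above background in a control sample. In the mutant channel all 3 were well above background on the replicate 2 array only. The glycine repeat probe printed above had levels of 6.39 and 6.81 in the mutant samples and 6.21 and 6.47 in the control samples. This gives a bound of at least 1.12-fold higher in the mutant. The bound is not firm, since the replicate 1 mutant level in it was itself not well above background. The other probes overlap each other with starts 12 bases apart (47325273 and 47325261 on chromosome 4), and their ratios were -0.07 and -0.08 for one, and -0.08 and -0.02 for the other. No bound could be given for these probes.

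The laminin chains were represented by 1 alpha, 1 beta and 1 gamma chain, and 0 of the 3 passed the test. Lama4 encodes the alpha 4 chain found in the laminins of blood vessels. Its levels were 7.74 and 8.59 in the mutant samples and 7.46 and 8.34 in the control samples, with the control sample of replicate 2 above the mutant sample of replicate 1. The ratios of 0.28 and 0.26 gave a mean of 0.27 ± 0.015 (SD, n = 2), and the 95% interval of -0.06 to 0.59 included 0 (limma adjusted p = 0.525).

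Lamb2 encodes the beta 2 chain, known from synapses and the glomerular basement membrane. It had levels of 8.22 and 8.85 in the mutant samples and 7.40 and 8.10 in the control samples. Both mutant samples lay above both control samples, which held for 2 of the 9 tested genes, Lamb2 and Nid1, and for 23% of all tested genes. Its ratios were 0.82 and 0.75, a mean of 0.78 ± 0.052 (SD, n = 2) and a 1.72-fold difference, with a 95% interval of 0.46 to 1.11 and a limma adjusted p of 0.0991.

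Lamc1 encodes the gamma 1 chain that most laminins share. On its probe (chromosome 1, 155066156 to 155066215, mm9, minus strand) the levels were 8.52 and 9.40 in the mutant samples and 8.23 and 8.89 in the control samples, so the groups overlapped. Its ratios of 0.29 and 0.51 gave a mean of 0.40 ± 0.16 (SD, n = 2), with a 95% interval of 0.06 to 0.74 and a limma adjusted p of 0.372.

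The nidogens, which bind laminin through its gamma 1 chain and also bind collagen IV, had unlike ratios. Nid1 (chromosome 13, 13604435 to 13604494, mm9, plus strand) had levels of 8.92 and 9.78 in the mutant samples and 7.77 and 8.79 in the control samples. The mutant sample of replicate 1 was above the control sample of replicate 2, so the groups did not overlap. Its ratios were 1.15 and 0.99, a mean of 1.07 ± 0.11 (SD, n = 2) and a 2.10-fold difference, with a 95% interval of 0.73 to 1.40. With a limma adjusted p of 0.0542 it lay just outside the threshold of 0.05, while the Col18a1 probe at 0.0446 lay just inside it. The Nid1 result rests on 1 of 3 probes. The others, nearer the 5′ end of the transcript and not tested, had ratios of 0.30 and 0.22 (13602780 to 13602839) and of 0.22 and 0.07 (the junction probe), and neither was well above background in a control sample.

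Nid2 (chromosome 14, 20630490 to 20630549, mm9, plus strand) had levels of 7.18 and 7.91 in the mutant samples and 7.10 and 7.68 in the control samples. Its ratios of 0.09 and 0.23 were the lowest of the tested genes, with a mean of 0.16 ± 0.097 (SD, n = 2), a 95% interval of -0.17 to 0.49 and a limma adjusted p of 0.736. The intervals of Nid1 and Nid2 did not overlap, but a difference between the nidogens was not tested.

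Perlecan, the product of Hspg2, carries heparan sulfate chains that hold growth factors. The brighter Hspg2 probe (chromosome 4, 137126392 to 137126451, mm9, plus strand) had levels of 8.61 and 9.60 in the mutant samples and 8.42 and 8.89 in the control samples. The arrays disagreed on the size: the ratios were 0.19 and 0.70, a mean of 0.45 ± 0.37 (SD, n = 2), the widest spread among the tested probes of these genes. The 95% interval was 0.03 to 0.86 and the limma adjusted p was 0.405. The probe printed above, 947 bases upstream, was not tested and had ratios of -0.06 and 0.21.

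**Figure D2:**
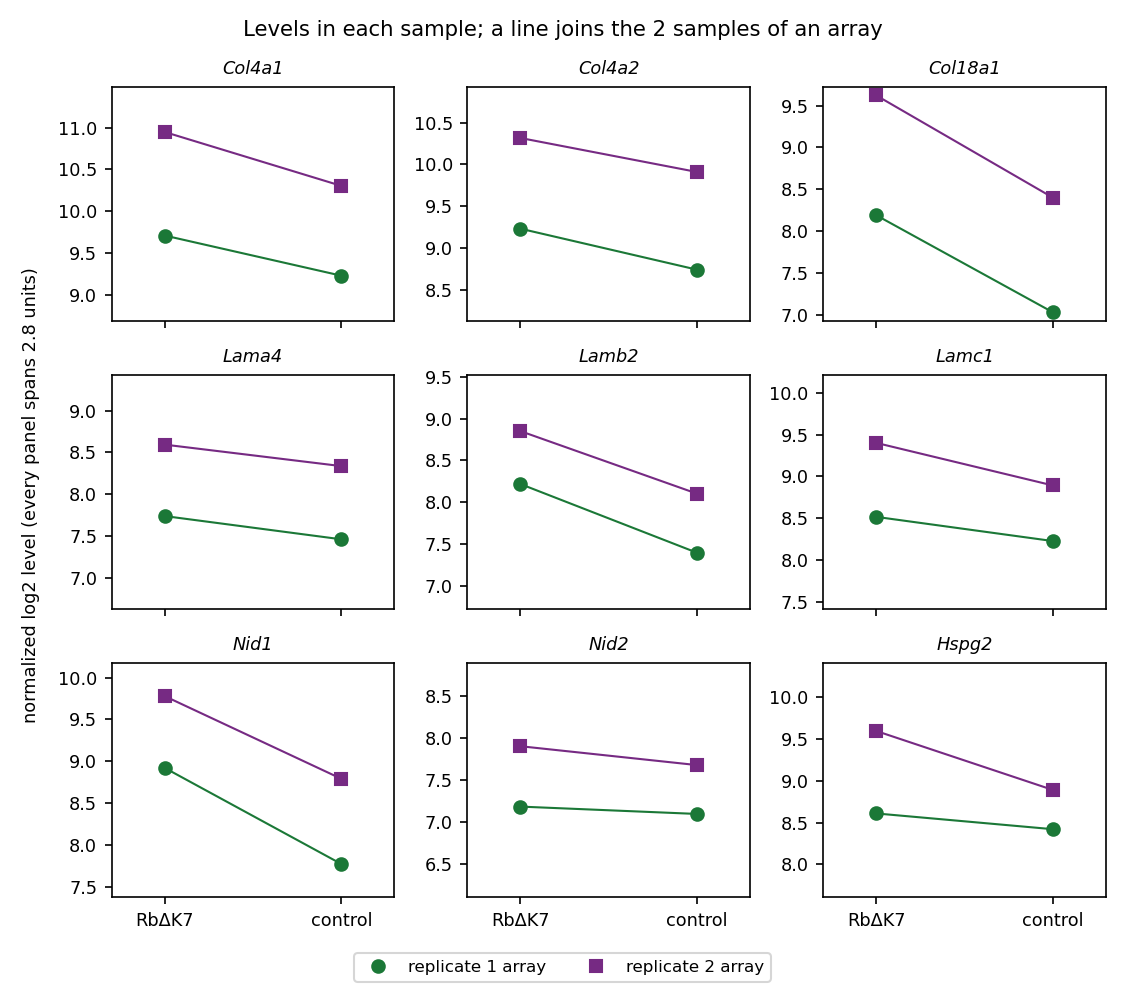
Normalized log2 level (y axis, 2.8 units in every panel) of the 9 tested genes in the RbΔK7 and control samples (x axis), with a line joining the samples of 1 array. Every line falls towards control, and in every panel both replicate 2 samples lie above their replicate 1 counterparts.

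The replicates of a genotype also differed from each other. For all 9 tested genes the replicate 2 sample was higher than the replicate 1 sample in both genotypes, which was so for 27% of all tested genes. The difference of replicate 2 over replicate 1 ran from 0.63 to 1.43 among the mutant samples and from 0.47 to 1.37 among the control samples. It was largest for Col18a1, at 1.43 in the mutant and 1.37 in the control. The SDs given with the ratios are of within-array differences and do not hold this difference between samples. When the 4 samples were fitted without pairing them by array, 0 probes passed over the array (1510 at an unadjusted p under 0.05), and Col18a1 had a limma adjusted p of 0.757.

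Placed among all 22266 tested probes by mean ratio, the Col18a1 probes ranked 111 and 231 from the top, Nid1 157 and Lamb2 364. Col4a1 ranked 770, Col4a2 1252, Hspg2 1262, Lamc1 1573, Lama4 2926 and Nid2 5416. The median ratios of the 9 tested genes were 0.48 and 0.64 (replicates 1 and 2), and those of all tested genes 0.02 and 0.03. All 9 were higher in the mutant on both arrays, as were 33.1% of all tested genes. Since the genes were chosen with earlier results of these data known, this comparison is a description and not a test.

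Of 31 other basement membrane genes, 30 were on the array and 21 could be tested. Of these, 1 rose and 0 fell, 14 were higher on both arrays and 0 were lower on both, with medians of 0.41 and 0.41. The gene that rose was Sparc, which encodes a collagen-binding matrix protein of basement membranes and connective tissue (chromosome 11, 55208939 to 55208998, mm9). Its levels were 13.78 and 15.57 in the mutant samples and 12.41 and 14.50 in the control samples, again with the control sample of replicate 2 above the mutant sample of replicate 1. The ratios were 1.36 and 1.07 (mean 1.22 ± 0.21, SD, n = 2; limma adjusted p = 0.0469). A second Sparc probe had 1.09 and 1.68 and did not pass (limma adjusted p = 0.0552), and with Agilent's processed signals 0 genes of this list were called.

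Among the other laminin chain genes, Lama2, the alpha chain of muscle and nerve basement membranes, had ratios of 1.13 and 0.84 (limma adjusted p = 0.0714). A further Lama2 probe had 0.80 and 0.59 (limma adjusted p = 0.145). Lamb1, the beta chain most widely paired with gamma 1, had 0.73 and 0.47, and Lama5, an alpha chain of vessels and epithelia, had 0.34 and 0.79. Lama3 and Lamb3, laminin chain genes of epithelia, were mixed in sign, with -0.30 and 0.41 for Lama3 and 0.16 and -0.08 for Lamb3, while a further Lama3 probe had 0.08 and 0.43. Agrn encodes agrin, a further heparan sulfate proteoglycan, and had 0.91 and 0.97 (limma adjusted p = 0.0647). The fibulin genes Fbln2, with 1.91 and 1.23 (limma adjusted p = 0.0511), and Fbln1, with 0.98 and 1.59, also did not pass, and a further Fbln1 probe had -0.24 and 0.36.

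The remaining collagen IV genes were mostly dim. Col4a5 had ratios of 0.24 and 0.48, while Col4a3, Col4a4 and Col4a6 were not tested. Smoc1 and Smoc2, relatives of Sparc, had 0.62 and 0.21, and 1.24 and 0.38. Egfl7, which endothelial cells secrete, had 0.41 and 1.02, and Vwa1, a perlecan-binding protein gene, 0.47 and 0.39. Tinagl1 had 0.21 and 0.35, with 0.35 and 0.08 on another probe. Ratios of opposite sign or near 0 were found for Col7a1, the anchoring fibril collagen gene, with 0.00 and -0.91, for Tinag (0.16 and -0.45), Npnt (-0.07 and 0.08), Fras1 (-0.41 and 0.19) and Frem2 (-0.12 and 0.08). None of these passed. Lama1, Lamc3, Ntn4, Hmcn1, Hmcn2, Frem1 and Col17a1 were not tested.

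Of 14 genes for cell surface receptors of the basement membrane, 13 were tested and 0 passed in either direction, with medians of 0.37 and 0.41 and 9 higher on both arrays. The integrin beta 1 gene Itgb1, the common partner of the laminin- and collagen-binding alpha chains, had ratios of 0.60 and 0.59 on its brighter probe and 0.32 and 0.37 on another. Its alpha partners had 0.13 and 0.33 (Itga1, with 0.10 and 0.31 on another probe) and -0.07 and 0.00 (Itga3). Itga6 had 0.13 and -0.12, with 0.32 and 0.14 on another probe, and Itga7 had 0.52 and 0.74. The dystroglycan gene Dag1 had 0.07 and 0.04 (limma adjusted p = 0.922), and the laminin alpha 5 receptor gene Bcam had 0.51 and 1.22. Cd151, a tetraspanin bound to laminin-binding integrins, had 0.70 and 0.59, with 0.43 and 0.59 on another probe. Itgb4, the beta chain of hemidesmosomes, had 0.37 and 0.41, and Itga2 was not tested. Sdc4, a syndecan gene, differed between the arrays, with 0.71 and -2.04.

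Of 10 genes that make, fold or crosslink collagen IV, all were tested and 0 passed, with medians of 0.12 and 0.29 and 6 higher on both arrays. Pxdn encodes peroxidasin, which forms the sulfilimine crosslink of collagen IV, and had ratios of 1.16 and 0.84 (limma adjusted p = 0.0722), with 0.83 and 0.72 on another probe. Serpinh1 encodes the collagen chaperone HSP47 and had 1.00 and 0.72 (limma adjusted p = 0.0962). The hydroxylase subunit and sugar transferase genes were nearer 0 or mixed in sign: P4hb had 0.10 and -0.15, P4ha1 -0.02 and 0.39, P4ha2 0.31 and 0.29, Plod1 -0.09 and 0.13, Plod3 0.30 and 0.11, and Colgalt1 -0.31 and 0.60. Mia3, needed to export large collagens from the endoplasmic reticulum, had 0.04 and 0.24 on its brighter probe and -0.31 and -0.06 on another, and a further Plod1 probe had -0.20 and -0.17.

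**Figure D3:**
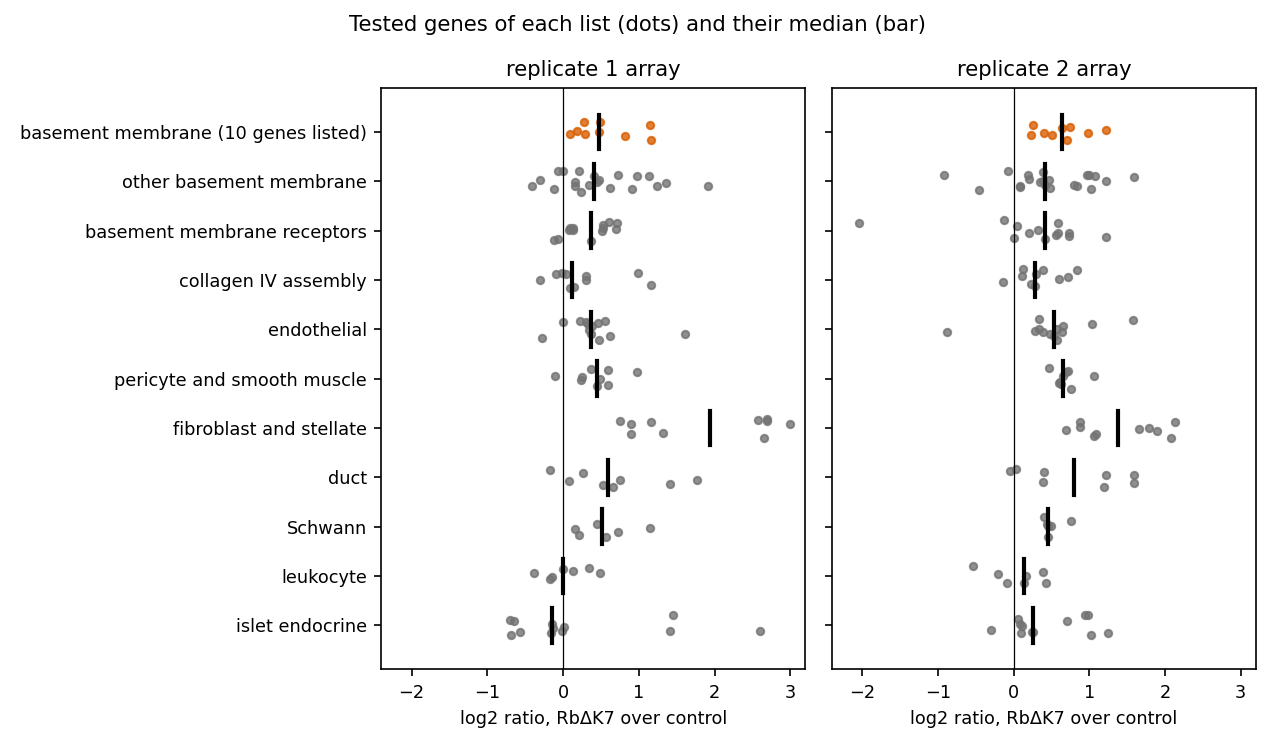
Log2 ratio of RbΔK7 over control (x axis) on each array (panels) for the tested genes of each list (y axis), with a dot per gene and a bar at the list's median. The medians of the basement membrane genes, 0.48 and 0.64, lie between those of the endothelial list, 0.37 and 0.53, and the duct list, 0.59 and 0.80, and beside those of the pericyte and smooth muscle list, 0.45 and 0.65. The fibroblast and stellate list has the highest medians, 1.95 and 1.37; the acinar list, at 0.46 and -5.19, is beyond the axis and not drawn.

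Markers of cells that can make basement membrane were read in the same samples. In bulk RNA, fewer cells of a type and less RNA per cell cannot be told apart. Of 13 endothelial markers, all tested, 1 was higher (Vwf, named after its values were seen) and 11 had positive ratios on both arrays, with medians of 0.37 and 0.53. Pecam1 had 0.46 and 0.64, and Cdh5 0.62 and 0.66. Kdr was named after its values were seen, because by the brightest probes it was the only marker lower on both arrays. On that probe, 1 of 2 tested for Kdr, it had -0.28 and -0.88 and did not pass (limma adjusted p = 0.321). Its levels, 12.39 and 11.48 in the mutant samples and 12.67 and 12.36 in the control samples, weigh on the sum of the list. The summed endothelial level was 13.55 and 13.66 in the mutant samples and 13.49 and 13.52 in the control samples. For comparison within the same samples, the summed level of the 9 basement membrane genes was 11.83 and 12.86 in the mutant samples and 11.29 and 12.22 in the control samples. Both sums were higher in replicate 2 than in replicate 1 of each genotype, the basement membrane sum by the larger step.

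The fibroblast and stellate markers, the cells that lay down fibrillar collagen, had the highest ratios. Of 10 such markers 6 were higher, with medians of 1.95 and 1.37. Col1a1 had 2.66 and 2.13, and Col1a2 had 3.00 and 2.08. Their summed level was 13.46 and 14.86 in the mutant samples and 10.99 and 13.00 in the control samples, also higher in replicate 2 of both genotypes. So were the sums of the pericyte and smooth muscle, duct and Schwann cell markers given below, but not that of the leukocyte markers. Such sums lean on their brightest markers, named here after their values were seen: Mcam (pericyte and smooth muscle), Mbp (Schwann) and Itgam (leukocyte). In the control samples Mcam had levels of 12.475 and 12.095 and Mbp 10.443 and 10.307, so both were lower in replicate 2. In the mutant samples they were higher in replicate 2, at 12.705 and 12.747 (Mcam) and 10.605 and 10.757 (Mbp). Pericyte and smooth muscle markers had medians of 0.45 and 0.65 with 0 of 9 tested markers called, while Cnn1, Des and Kcnj8 were too dim to test. Their sum was 13.23 and 13.76 in the mutant samples and 12.90 and 13.10 in the control samples, and Pdgfrb had ratios of 0.59 and 0.76 and Cspg4 -0.11 and 0.59.

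Duct markers had medians of 0.59 and 0.80, with Cftr too dim to test and 2 of 8 tested markers higher (Spp1 and Tspan8, named after their values were seen), and sums of 11.93 and 12.42 in the mutant samples and 11.12 and 11.42 in the control samples. Krt19 had ratios of 0.66 and 1.59, and Krt7 -0.17 and 0.03. Schwann cell markers had medians of 0.51 and 0.45 with 0 of 6 tested markers called, and sums of 11.33 and 11.46 in the mutant samples and 10.96 and 10.98 in the control samples. S100b had ratios of 0.73 and 0.45. Of the leukocyte markers Ptprc was too dim to test. For the other 7, 0 of them called, the medians were -0.01 and 0.13, with sums of 13.19 and 13.12 in the mutant samples and 13.36 and 13.06 in the control samples. On both arrays 3 of them were higher and 3 lower. Cd68 and Adgre1, among the higher, had ratios of 0.13 and 0.13, and of 0.48 and 0.39. The lower ones, named after their values were seen, had -0.15 and -0.21 (Csf1r), -0.39 and -0.53 (Cd3e), and -0.01 and -0.09 (Cd79a). The part of these cell types in the basement membrane ratios was not tested.

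The ratios of the basement membrane genes depend on how the arrays are scaled. When the arrays were centred on their medians without loess, 8 of the 9 genes were called higher, all but Nid2. But 6664 of all 22266 tested probes were then called higher too, and their medians were 0.39 and 0.84. Relative to the median of all probes, the mean ratios of the 9 genes stayed above 0 in each of the 8 other ways of processing, from 0.09 for Nid2 with median centring to 1.62 for Col18a1 with Agilent's processed signals. Only Agilent's processed signals, the nearly identical series matrix values, an offset of 0 and median centring gave new ratios. The other ways reuse the loess ratios.

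**Figure D4:**
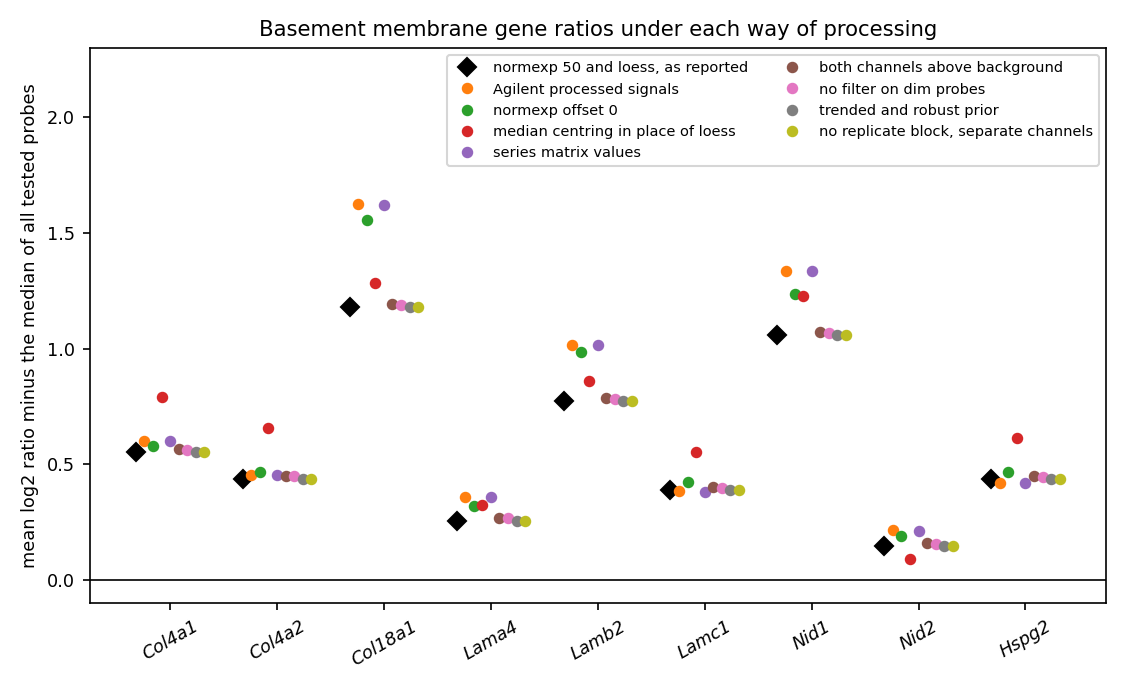
Mean log2 ratio of RbΔK7 over control minus the median of all tested probes (y axis) for the brightest probe of each gene (x axis), with a black diamond for the values reported here and a coloured dot for each of the 8 other ways of processing. All points lie above 0, the lowest at 0.09 for Nid2 and the highest at 1.62 for Col18a1. The filters, the trended prior and the separate channels reuse the reported ratios, so their dots differ from the diamond at most through the median.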

How the data were processed

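Each of 2 two-colour Agilent arrays carried 1 RbΔK7 mutant sample (Cy5) and 1 control sample (Cy3), as the labels give the dyes. The submitters' processing notes name Agilent Feature Extraction 10.7.3.1. The deposited intensity values, per the file headers, are each spot's mean signal and median local background, and processed signals corrected for background and dye. The deposited log10 ratios are of red (mutant) over green (control) processed signals, per the file headers, and the series matrix deposited by the authors has identical log10 ratios (largest difference 0 on both arrays, medians 0 and 0). Probe positions are on mm9, per the file headers. The placement of probes in exons or UTRs was not analysed here.

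Signals were corrected by normexp (offset 50) and log2 ratios normalized by loess within arrays (span 0.3) with limma 3.58.1 in R 4.3.3. This offset shrinks the ratios of dim probes, and loess assumes that most probes are alike in both channels. Levels were set between arrays by quantile normalization of mean intensities. A bound ("at least") sets the mutant mean against the control mean of, per array, the higher of the probe's own level and the lowest level among probes well above background. Control spots and outlier spots (4 per array) were left out, and replicate spots averaged. Probes entered the test if, on both arrays, at least 1 channel was well above background, and the brightest tested probe stood for its gene in counts of genes. Limma's two-sided test (lmFit, eBayes) set the 2 ratios of each probe against 0, and p-values were adjusted by Benjamini-Hochberg over all 22266 probes tested, with calls at 0.05. Each probe left 1 residual degree of freedom, and the prior's were 4.90 (prior SD 0.204). The test was checked on simulated data.

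The 10 genes were matched by the name in the files. For the lists, probes were named through a GRCm38.p6 table, used for names: 26762 of 55681 by accession, 3819 by symbol and 634 by synonym, while 24466 kept the file's name. All probes of the 10 genes are given. Any tested gene of the 3 matrix lists could be named, with called ones always named, and of the marker lists the first 2 tested genes in list order and counts of called ones. A few genes of these lists are not reported here by name. The transcript positions of probes are those in the files. The genes and lists were chosen with earlier results of these data known, so lists are described by counts and medians, with no test of their own. The alternatives were Agilent's processed signals, an offset of 0, median centring, the series matrix, a stricter and no filter, a trended and robust prior, separate channels, gene means and leaving out each array.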

Additional observations from a re-analysis of the deposited data

How the results depend on the processing

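In the 8 other ways of processing with a test, the mean ratio of each tested probe of the 10 genes stayed above 0, and no sign changed. In several of them no sign could change: the stricter filter, no filter, the trended prior and the separate channels reuse the loess ratios. The series matrix values nearly repeat those of Agilent's processed signals. New ratios thus came only from Agilent's signals, an offset of 0 and median centring. Counts of calls moved. Agilent's processed signals, the series matrix values, a normexp offset of 0, and separate channels with no replicate block each gave 0 probes higher and 0 lower (2351, 2355, 2471 and 1510 at an unadjusted p under 0.05), and so 0 calls among the basement membrane genes, the other basement membrane genes and the receptors. Averaging the probes of a gene also gave 0 calls (1956 at an unadjusted p under 0.05). Median centring gave 6664 of 22266 probes higher and 71 lower. It called 8 of the basement membrane genes, 12 of the other basement membrane genes and 9 receptors higher. The median of the 9 genes' mean ratios was then 1.28, against 0.45 with loess. The median of all probes was 0.62, against 0.01 with loess. With no filter on dim probes 323 of 55673 were higher and 32 lower, with 3 and 5 genes of the basement membrane lists called. With a trended and robust prior 515 of 22266 were higher and 49 lower, with 3, 6 and 3 genes of the 3 lists called. With both channels required above background 73 of 18678 were higher and 3 lower, with 1 and 2 genes called. Nid1 passed in 3 of these 8 settings and Lamb2 in 3, while Col18a1 kept its call in 4.

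The median of the 9 genes' mean ratios was 0.45 over both arrays. Their median ratio was 0.48 without replicate 2 and 0.64 without replicate 1, and with 1 array left there is no test. The ratio within an array pairs mutant and control, and the separate-channel fit is the one without that pairing. With 2 arrays, 1 dye orientation and 1 slide, a dye effect on a probe cannot be told apart from genotype. Signal over background limits Col15a1 and the dimmer Nid1 and Hspg2 probes, which have only bounds or ratios without a test. With 2 samples a group no sample could be tested as an outlier, but the mutant sample of replicate 2 stood apart in its summed acinar level (16.46). Over all tested probes the ratios of the arrays had a Pearson correlation of 0.235, and 57.6% had the same sign on both.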
